A study of Mus musculus with 23 samples.

Results

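Fully grown mouse oocytes at the germinal vesicle (GV) stage, which are arrested in the first meiotic prophase, were compared with 1-cell embryos, both wild type (WT), to show how the pool of poly(A) mRNA differed across meiotic maturation and fertilisation. The comparison used 5 of the 23 libraries of the series, namely 2 libraries of total mRNA from WT GV oocytes and 3 from WT 1-cell embryos. They were chosen by stage, genotype and RNA fraction, and no measured value entered the choice. The series as a whole set WT mice against mice heterozygous (het) for Eif4enif1, which encodes 4E-T, a partner of the cap-binding protein eIF4E in stored mRNA particles. Neither group used here was treated, and the labels used here name no strain, age or number of oocytes or embryos per library. The labels give the genotype of an embryo as WT without saying whether it is the embryo's own or its mother's. GV oocytes and embryos were counted in separate deposited tables, so stage and table cannot be told apart, and differences under 4-fold are given as values only.

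A growing oocyte makes and stores mRNA, and by the end of growth its transcription is silent. During maturation, stored mRNAs with a cytoplasmic polyadenylation element in the 3′ UTR gain a poly(A) tail and are translated, while many others lose their tail to the CCR4-NOT deadenylase, which is brought to them by adaptors such as BTG4, and are then degraded. The zygotic genome begins to be transcribed weakly in the 1-cell embryo and strongly in the 2-cell embryo. Because poly(A) RNA was captured, the amount of an mRNA and the length of its tail cannot be told apart in these values, and fewer transcripts per cell cannot be told apart from fewer cells in a library.

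The GV libraries held 44340865 and 44998488 counts on genes and the 1-cell libraries 18321744, 17994629 and 21693238, with 27363 and 28160 genes detected in GV against 20912 to 21863 in 1-cell libraries. The 100 most abundant genes took 24.7% and 25.5% of the counts in GV libraries and 32.1% to 37.6% in 1-cell libraries. Spearman's rho over genes was 0.976 between the GV libraries, 0.931 to 0.954 among the 1-cell libraries and 0.734 to 0.805 across the stages. All 12 oocyte markers examined, among them the zona pellucida genes, Gdf9 and H1foo, were detected in both stages, with a summed level of 28538 and 29501 CPM (counts-per-million, scaled between libraries) in GV and 21692 to 26560 in 1-cell libraries. Of these 12, 4 fell by 4-fold or more and none rose as much. At an adjusted p under 0.05 in edgeR's quasi-likelihood test, 8 were lower and 2 higher. The median log2 fold change of the 12 was -1.11, against -0.32 for all genes. The sum holds Dppa3, whose mean rose from 3043 CPM in GV to 10502 CPM in 1-cell libraries. Of 25 granulosa and cumulus cell markers, 14 passed the filter on low counts, 6 fell by 4-fold or more and 4 had no count in any 1-cell library. The summed level of these markers was 83.9 and 155 CPM in GV and 56.6, 73.1 and 70.4 CPM in 1-cell libraries, and its part in the results below was not tested. Inha, the inhibin alpha subunit made by granulosa cells, was at 28.2 and 83.2 CPM in GV libraries and had no count in 1-cell libraries, which makes it at least 958-fold lower (taking 3 counts over the whole group as the floor). Sperm markers were at 112 and 124 CPM in sum in GV and 61.5 to 71.0 in 1-cell libraries, with 4 of 7 tested lower by 4-fold or more. The shares of tested markers lower by as much were 33.3% (oocyte), 42.9% (granulosa and cumulus) and 57.1% (sperm), against 21.6% of all genes. With either one of the GV libraries left out, 2 granulosa and 2 sperm markers had a large decrease. Oviduct markers summed to 38.65 and 25.01 CPM in GV and 24.0 to 51.7 in 1-cell libraries, and no blood marker passed the filter.

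A change is called large here when edgeR's quasi-likelihood test gave an adjusted p under 0.05 over all 18943 genes tested, the difference was 4-fold or more and no GV library overlapped a 1-cell library in scaled CPM. On this rule 4086 genes fell from GV to 1-cell, 21.6% of those tested, and 1322 rose, 6.98%, so that 5408 genes (28.5%) changed. Without the limit on fold, 5389 genes (28.4%) were lower and 3761 (19.9%) were higher at an adjusted p under 0.05. The median log2 fold change over all genes was -0.32 and 24.4% of the large changes were increases. When libraries were scaled by their total counts, the median moved to -0.74, large increases numbered 623 and large decreases 5125, and 10.8% of the large changes were increases. Without GV library 1 the median was -0.292 and without GV library 2 it was -0.294. A single GV library then stands for the stage, and fewer large decreases were found in both cases, for reasons that were not tested. At the 4-fold limit, Cask lay just inside (log2 fold change 2.00014) and Tmem47 just outside (1.99982) among increases, and Nudt3 (-2.00166) and Orc3 (-1.999) likewise among decreases. Protein-coding genes were close to the whole, with 2927 of 13473 lower and 875 higher. Of 1811 processed pseudogenes, 562 (31.0%) fell, and 169 of 1114 lincRNAs were lower against 95 higher.

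**Figure D1:**
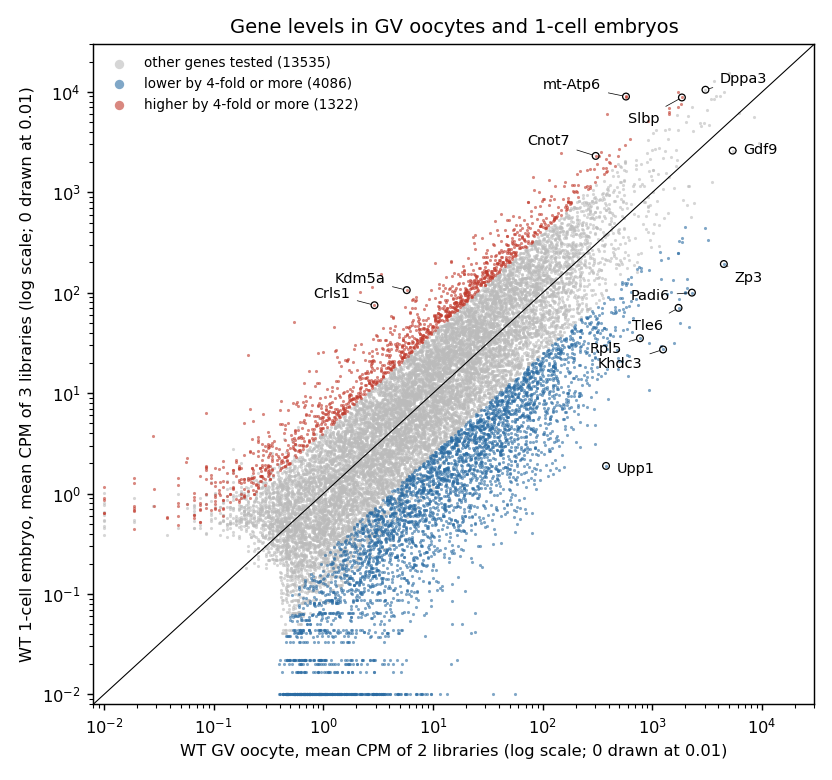
Mean level of each of the 18943 genes tested in 2 WT GV libraries (x axis) and 3 WT 1-cell libraries (y axis), in CPM on log scales, with means of 0 drawn at 0.01. Blue points are the 4086 large decreases, red points the 1322 large increases, and the line marks equal levels; Zp3, Padi6, Khdc3 and Upp1 lie far below it and mt-Atp6, Cnot7, Crls1 and Kdm5a above it.

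The last 100 bases of 1 protein-coding transcript per gene (GENCODE M21, build GRCm38) were searched on the transcript strand for the polyadenylation element TTTTAT or TTTTAAT and for the cleavage signal AATAAA or ATTAAA, which can overlap. The element was present in 27.1% of 863 genes with a large increase, 8.89% of 2892 with a large decrease and 20.4% of 9600 others, against 18.3% of all 13355 genes searched and 16.2% of 21696 annotated genes. The cleavage signal was present in 81.9%, 71.7% and 78.0% of the same groups. These ends also differed in base composition, with a median A and T content of 70% in genes that rose, 57% in those that fell and 65% in the others. Within classes of A and T content, the element was present in 5.17% of genes that rose, 2.03% of those that fell and 4.56% of the others up to 55%, and in 12.5%, 9.25% and 13.0% from 55 to 65%. The same shares were 27.0%, 20.3% and 28.1% from 65 to 75%, and 47.7%, 35.8% and 44.8% over 75%. At matched composition, rising genes were thus within 3 percentage points of the others, above them in 2 classes and below in 2, and falling genes were below both in each class. A match is a description of the letters in this window and not a tested site.

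Examples are shown for mRNAs that rose with the element near the cleavage signal (Cnot7, Plk4, Omt2a), for one that carried it and did not change by 4-fold (Gdf9), for one that carried it and fell (Rpl5) and for 4 that fell with no match in the window (Zp3, Padi6, Tle6, Upp1). No example is shown of an mRNA that rose with no match, such as Crls1, Kdm5a or Hprt, although only 27.1% of genes with a large increase held the element. Each stretch ends at the last of these motifs, capitals mark the element and the cleavage signal, and all lie in the last exon of their transcript. The Cnot7 end is at chr8:40493041-40493070 and the Plk4 end at chr3:40816832-40816861. Omt2a lies at chr9:78312022-78312051, Gdf9 at chr11:53437858-53437887 and Rpl5 at chr5:107908959-107908988. Zp3 lies at chr5:135988583-135988612, Padi6 at chr4:140727373-140727402, Tle6 at chr10:81590919-81590948 and Upp1 at chr11:9136122-9136151. Cnot7, Omt2a, Padi6 and Tle6 are on the minus strand and the other 5 on the plus strand.
Cnot7: aagtcttaaggtacaTTTTATatcAATAAA
Plk4: gatttctgcaaatacaTTTTATaaAATAAA
Omt2a: taagtggggttttaacggTTTTATAATAAA
Gdf9: tgctgtggTTTTATgtgacggaagAATAAA
Rpl5: catgctatattaactgaactTTTTAATAAA
Zp3: cttcctaccttgtatcccttccgcAATAAA
Padi6: atgtaaacaaattgccatagagccAATAAA
Tle6: gtgtgcagatcccgagttgcgtgtAATAAA
Upp1: gagaagcctctgcaactcctgggcAATAAA

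The mRNAs of the zona pellucida, the glycoprotein coat laid down during oocyte growth, fell by far more than 4-fold. Zp3, a structural glycoprotein of this coat, was at 4325 and 4630 CPM in GV libraries and at 210, 187 and 182 CPM in 1-cell libraries, a log2 fold change of -4.54 ± 0.18 (SE, adjusted p = 0.000304). Zp2 went from 1392 and 2093 to 95.6, 83.9 and 78.5 CPM (-4.34 ± 0.24), and Zp1 from 1122 and 1612 to 112, 91.5 and 87.3 CPM (-3.82 ± 0.24). All GV libraries were thus more than 10 times as high as any 1-cell library for these genes, and the 1-cell libraries lay close together. Gja4, the connexin that joins the oocyte to granulosa cells, fell from 497 and 686 to 31.7, 18.5 and 21.6 CPM (-4.63 ± 0.31). Among the 38 tested members of this list of zona and oocyte growth genes, 11 showed large decreases and 3 large increases, shares of 28.9% and 7.89% against 21.6% and 6.98% of all genes, and the list's median log2 fold change was 0.34 above that of all genes. Transcription factors of the growing oocyte, Figla (-5.97), Nobox (-2.99) and Lhx8 (-1.82), were lower, the last by less than 4-fold. The oocyte growth factor Gdf9 was at 5464 and 5313 CPM in GV and 1803, 2384 and 3616 CPM in 1-cell libraries (-1.05 ± 0.29, adjusted p = 0.0211), and its partner Bmp15 had overlapping levels of 985 and 1511 against 1488, 870 and 905 CPM (-0.20 ± 0.31, adjusted p = 0.615).

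The 3 that rose in this list are oocyte-specific genes of little known function. Oog3 went from 1206 and 1633 to 9116, 5985 and 5608 CPM (2.28 ± 0.29, adjusted p = 0.00121) and Omt2a from 1512 and 1337 to 7552, 5079 and 6424 CPM (2.16 ± 0.23). Omt2b rose from 1852 and 1583 to 9134, 5420 and 6476 CPM (2.03 ± 0.27). The 3′ stretch printed for Omt2a is identical in Omt2b (chr9:78329549-78329578, not printed). Reads could therefore be split between Omt2a and Omt2b, and their values are uncertain for that reason. Without 1-cell library 1 or GV library 2, Omt2b was under 4-fold (1.83 and 1.89), and under total-count scaling none of the 3 reached it (1.85, 1.73 and 1.59). Bcl2l10, a BCL2-family gene, and Tcl1, a kinase co-activator, were higher by less than 4-fold, at 1.81 and 1.32.

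The subcortical maternal complex is a protein lattice under the oocyte membrane that the embryo needs for its first divisions, and its mRNAs were unequal in their change. Padi6 was at 2044 and 2538 CPM in GV and at 98.9, 92.6 and 109 CPM in 1-cell libraries (-4.51 ± 0.20, adjusted p = 0.000304). Tle6 fell from 1644 and 1815 to 73.4, 59.4 and 79.1 CPM (-4.61 ± 0.21), and Khdc3 from 1415 and 1085 to 24.8, 26.7 and 30.2 CPM (-5.52 ± 0.23). For Ooep the GV values were 1571 and 1512 CPM and the 1-cell values 230, 99.2 and 69.7 CPM (-3.54 ± 0.48), with 1-cell library 1 the highest of its group. Nlrp5 (MATER), another member of the complex, was at 443 and 682 CPM in GV and 315, 320 and 306 CPM in 1-cell libraries, a log2 fold change of -0.84 ± 0.23 (adjusted p = 0.0199). Of 30 maternal effect genes, 6 fell by 4-fold or more and none rose, against backgrounds of 21.6% and 6.98%, and the median was within 0.07 of all genes. Dppa3 (Stella), which guards the maternal genome against demethylation, went the other way, from 3408 and 2678 to 12686, 8516 and 10304 CPM (1.79 ± 0.24, adjusted p = 0.00139). Zar1, a maternal effect RNA-binding protein, was at 1493 and 1262 CPM in GV and 427, 737 and 685 CPM in 1-cell libraries (-1.16 ± 0.26), and its relative Zar1l fell from 556 and 511 to 34.9, 18.1 and 9.72 CPM (-4.67 ± 0.51).

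Genes that store and repress mRNA moved both ways. Cpeb1, which binds the polyadenylation element and represses its targets until maturation, was at 273 and 362 CPM in GV and 44.9, 53.3 and 52.8 CPM in 1-cell libraries (-2.65 ± 0.22, adjusted p = 0.000462). Its paralogue Cpeb4 went up, from 5.27 and 3.11 to 26.6, 25.2 and 64.3 CPM (3.21 ± 0.57, adjusted p = 0.004). Ybx2 (MSY2), a germ-cell RNA-binding protein that packages stored mRNA, fell from 56.1 and 36.0 to 6.34, 4.50 and 8.92 CPM (-2.80 ± 0.38). Pabpc1l, the poly(A)-binding protein of oocytes, went from 145 and 158 to 10.5, 2.56 and 3.36 CPM (-4.80 ± 0.61). Patl2, a repressor of translation specific to oocytes, fell (-2.46 ± 0.31) while its paralogue Patl1 rose (2.09 ± 0.45), the latter losing its call without GV library 2 (adjusted p = 0.077). Eif4enif1 was at 180 and 179 CPM in GV and 128, 140 and 173 CPM in 1-cell libraries, and this difference did not pass the test (-0.29 ± 0.21, adjusted p = 0.292). In all, 6 of 40 tested members of the list showed large decreases and 3 large increases, shares of 15% and 7.5% against backgrounds of 21.6% and 6.98%, with a median 0.63 above that of all genes. The large increases numbered 6 without GV library 1 or 1-cell library 1, and 1 without GV library 2 or 1-cell library 3 and under total-count scaling.

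Of 31 deadenylation genes, 6 rose by 4-fold or more and 3 fell, and under total-count scaling 2 rose and 4 fell. Cnot7, a catalytic subunit of the CCR4-NOT deadenylase, rose from 246 and 362 to 2575, 2463 and 1873 CPM (2.92 ± 0.27, adjusted p = 0.000569), and each 1-cell library was above both GV libraries by more than 5 times. Btg4, the adaptor that ties this deadenylase to maternal mRNAs, was at 2283 and 2314 CPM in GV and 8721, 5872 and 6451 CPM in 1-cell libraries, under the 4-fold limit (1.61 ± 0.22, adjusted p = 0.00166). Cnot6l, the other catalytic subunit at work in maternal decay, was at 114 and 62.4 against 221, 195 and 358 CPM (1.55 ± 0.38, adjusted p = 0.0142). Pan3, of the PAN2-PAN3 deadenylase, rose from 100 and 68.0 to 354, 353 and 496 CPM (2.26 ± 0.29), and Ythdf3, a reader of methylated adenosine in mRNA, by 2.14 ± 0.23. Without GV library 2 Pan3 was just under 4-fold (1.98). Decreases were found for Cnot10, a subunit of CCR4-NOT, from 31.1 and 37.0 to 1.31, 1.40 and 0.501 CPM (-5.00 ± 0.48), and for Pnldc1, a poly(A) exonuclease of the germ line, by -4.72 ± 0.55. Large changes were thus 19.4% upward and 9.68% downward, against 6.98% and 21.6% of all genes, and the median was 1.20 above that of all genes. With all 19 total-mRNA libraries in the fit, 3 rose and 3 fell by 4-fold or more. Large increases numbered 8, 7 and 6 without 1-cell library 1, 2 or 3. The list's median log2 fold change was 0.88, and was 0.85 without GV library 1 and 0.76 without GV library 2.

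Of 41 decapping and exonuclease genes, 2 showed large increases and 7 large decreases, shares of 4.88% and 17.1% that lay near the backgrounds of 6.98% and 21.6%. The decapping enzyme Dcp2 was at 26.9 and 29.6 CPM in GV and 94.4, 60.8 and 71.4 CPM in 1-cell libraries (1.42 ± 0.28, adjusted p = 0.00627), and its activator Dcp1a at 179 and 135 against 230, 332 and 495 CPM (1.17 ± 0.35, adjusted p = 0.0293). Tut7, which adds uridines to deadenylated mRNA, rose from 15.01 and 12.6 to 63.4, 74.3 and 60.7 CPM (2.26 ± 0.27). Subunits of the exosome, the complex that degrades RNA from its 3′ end, were among the decreases, with Exosc5 going from 47.0 and 53.0 to 1.89, 1.28 and 1.55 CPM (-4.99 ± 0.32) and Exosc4 changing by -3.33 ± 0.46. Of the LSM ring, which joins deadenylation to decapping, Lsm4 (-4.28 ± 0.31) and Lsm6 (-3.23 ± 0.36) fell, while Lsm1 was higher by less than 4-fold (1.47).

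The list of mRNAs known to be translated during maturation had 5 large increases and 2 large decreases among 25. These shares of 20% and 8% compare with 6.98% and 21.6% of all genes. Without the limit on fold, 17 of 25 were higher and 3 lower at an adjusted p under 0.05, where the backgrounds are 19.9% and 28.4%. The list's median lay 1.59 above that of all genes. Hprt, a purine salvage enzyme, rose from 103 and 93.1 to 1040, 735 and 668 CPM (3.06 ± 0.27, adjusted p = 0.000528), Orc6, a subunit of the origin recognition complex, from 163 and 171 to 756, 742 and 660 CPM (2.11 ± 0.19), and Il7, a cytokine, by 2.44 ± 0.24. Ccnb1, the B-type cyclin that drives entry into M phase, was at 807 and 1302 CPM in GV and 3017, 2649 and 2421 CPM in 1-cell libraries (1.35 ± 0.25, adjusted p = 0.00511). The 2 that fell are classic targets of polyadenylation at maturation. Plat, tissue plasminogen activator, was at 1530 and 2192 CPM in GV and 234, 224 and 501 CPM in 1-cell libraries (-2.54 ± 0.39, adjusted p = 0.00234), and Mos, the kinase that holds the egg in metaphase, at 561 and 714 against 63.8, 132 and 232 CPM (-2.16 ± 0.48, adjusted p = 0.00964). Mos was under 4-fold without 1-cell library 1 (-1.78).

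**Figure D2:**
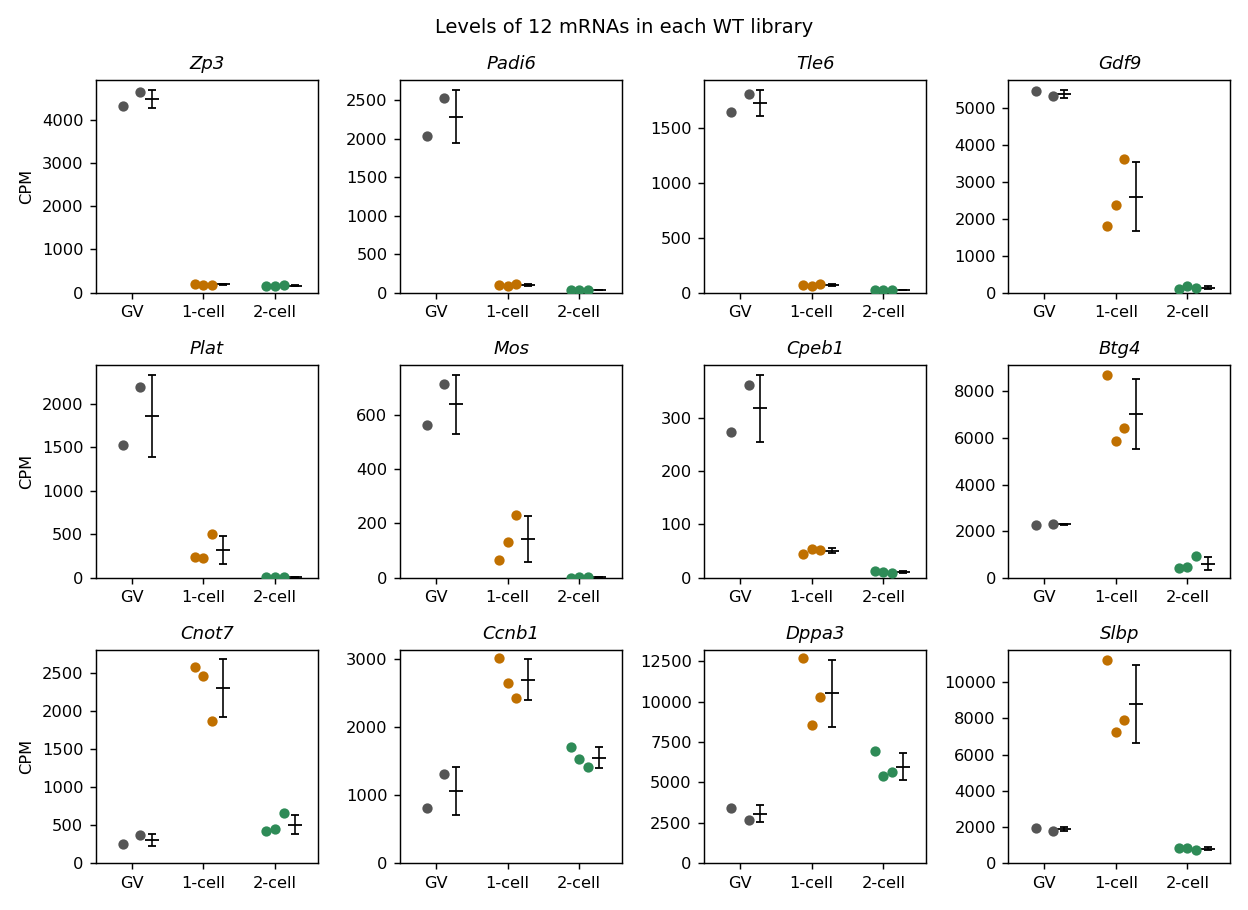
Level of 12 mRNAs in each WT library of total mRNA (points), in CPM, at the GV (2 libraries), 1-cell (3) and 2-cell (3) stage, with bars for the mean and SD and a vertical axis of its own from 0 for each gene. Zp3, Padi6 and Tle6 were already low at the 1-cell stage, Gdf9 was intermediate, and Btg4, Cnot7 and Slbp were highest in the 1-cell libraries.

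The WT 2-cell libraries, which came from embryos cultured for 24 hours and did not enter the test, place these values in time. Btg4 was at 416, 462 and 941 CPM there and Cnot7 at 417, 441 and 652 CPM, both below every 1-cell library. Gdf9 was at 96.2, 179 and 122 CPM, Mos at 1.02, 2.18 and 2.16 CPM and Plat at 5.54, 9.34 and 6.20 CPM. Zp3 differed from these, since its 2-cell values of 158, 150 and 166 CPM were close to those of the 1-cell libraries. Dppa3 was at 6909, 5365 and 5605 CPM, below every 1-cell library.

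The meiotic cell cycle list was mixed, with 13 large decreases and 6 large increases among 65, shares of 20% and 9.23% that lay near the backgrounds of 21.6% and 6.98%. Without 1-cell library 3 there were 11 large decreases and 10 large increases. Plk4, the kinase that starts centriole assembly, rose from 56.8 and 72.5 to 456, 439 and 435 CPM (2.78 ± 0.22, adjusted p = 0.000447). Subunits of the anaphase-promoting complex, the ubiquitin ligase that ends metaphase, went in both directions: Cdc27 rose from 46.0 and 58.6 to 411, 374 and 270 CPM (2.75 ± 0.28) and Anapc10 by 2.38 ± 0.24, while Anapc7 fell from 30.1 and 35.4 to 8.62, 6.27 and 8.01 CPM (-2.10 ± 0.30). Anapc7 was just under 4-fold without 1-cell library 2 (-1.98). Fzr1 (CDH1), the activator of that complex which keeps GV oocytes arrested, fell from 101 and 130 to 3.46, 3.47 and 5.11 CPM (-4.84 ± 0.31, adjusted p = 0.000375). Aurkb, a kinase of the chromosomal passenger complex, changed by -3.73 ± 0.33 and Mapk3 (ERK1) by -2.95 ± 0.26, from 314 and 307 to 46.0, 45.3 and 29.5 CPM. Mad2l1, of the spindle checkpoint (2.51), and Mastl, the Greatwall kinase (2.73), were among the increases.

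DNA replication genes, which serve the S phases of the 1-cell and 2-cell embryo, had 11 large decreases and 5 large increases among 51. These shares of 21.6% and 9.80% lay near those of all genes, 21.6% and 6.98%. Rpa2 fell from 161 and 156 to 8.36, 3.35 and 2.50 CPM (-5.07 ± 0.52, adjusted p = 0.00069), while Rpa3, another subunit of the same single-strand binding complex, rose from 68.7 and 61.1 to 411, 343 and 350 CPM (2.50 ± 0.22, adjusted p = 0.000494). Rfc2 of the clamp loader (-5.56 ± 0.36), the flap endonuclease Fen1 (-5.21 ± 0.55) and thymidylate synthase Tyms (-4.44 ± 0.27) fell. Pola1, the catalytic subunit of DNA polymerase alpha, rose from 16.04 and 17.7 to 94.6, 91.5 and 83.2 CPM (2.41 ± 0.24), and cyclin E2 (Ccne2) by 2.26 ± 0.24.

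Of 48 genes of the 2-cell and early zygotic list that the tables hold, 22 were too low to test. The median of the 26 tested was 0.77 above that of all genes. Against 6.98% and 21.6% of all genes, 3 of the 26 (11.5%) showed large increases and 2 (7.69%) large decreases. With either one of the GV libraries left out there was 1 of each. The homeobox gene Obox3 rose from 6.47 and 16.3 to 74.4, 57.5 and 76.8 CPM (2.61 ± 0.45, adjusted p = 0.00364), with 2-cell values of 761, 735 and 702 CPM. With all 19 total-mRNA libraries in the fit, Obox3 did not pass the test (2.41, adjusted p = 0.11). Pramef6 went from 0.0563 and 0.170 to 0.784, 1.34 and 0.801 CPM (3.06 ± 0.86) and Zfp54 changed by 2.63 ± 0.75, and both calls were lost without GV library 1 (adjusted p = 0.26 and 0.14) and without GV library 2 (adjusted p = 0.13 and 0.22). Dppa4, an early embryonic chromatin factor, fell from 15.8 and 21.1 to 1.70, 0.913 and 1.65 CPM (-3.70 ± 0.41), where the 2-cell libraries held 656, 620 and 491 CPM. The 6 tested Zscan4 genes, markers of transcription at the 2-cell stage, did not pass the test, with log2 fold changes of 0.31 for Zscan4c and -0.74 for Zscan4d.

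Chromatin genes that act on DNA methylation had 6 large decreases and 2 large increases among 33, shares of 18.2% and 6.06% that lay near the backgrounds of 21.6% and 6.98%. Without GV library 1 there were 3 large decreases and 4 large increases, and without GV library 2 there were 3 and 1. Dnmt3l, the cofactor that directs methylation in growing oocytes, fell from 194 and 193 to 28.8, 16.1 and 19.4 CPM (-3.17 ± 0.29, adjusted p = 0.000563). Dnmt1, the maintenance methyltransferase, was lower by less than 4-fold (-1.88). Hells, a chromatin remodeller needed for methylation, rose from 54.2 and 43.1 to 238, 336 and 315 CPM (2.61 ± 0.26), and Ctcf, the insulator protein, from 35.3 and 17.2 to 101, 156 and 119 CPM (2.25 ± 0.39). Without GV library 2 Ctcf was under 4-fold (1.80).

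**Figure D3:**
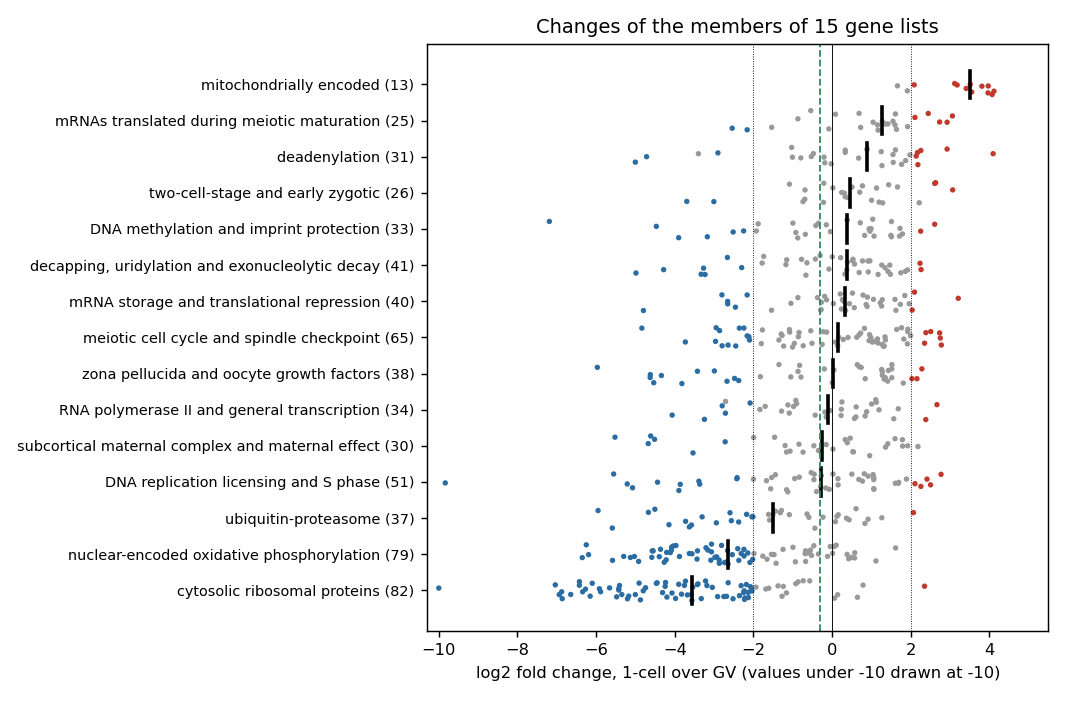
Log2 fold change from GV to 1-cell of every tested member (points) of 15 gene lists, with the number tested after each name. Red and blue points are large increases and decreases, black bars the list medians, the green dashed line the median of all genes, dotted lines the 4-fold limit; Rpl3, Pold1 and Tdg, with no count in 1-cell libraries, are drawn at fitted values that are no bound, and Rpl3 lies at the left edge. Ribosomal and nuclear-encoded oxidative phosphorylation genes lie to the left and mitochondrially encoded genes to the right.

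Of the 15 lists, large decreases took the highest share of the 82 cytosolic ribosomal protein genes, of which 66 (80.5%) fell by 4-fold or more and 1 rose, against 21.6% and 6.98% of all genes. The median of the list was 3.26 below that of all genes. Rpl5, a protein of the large subunit, went from 835 and 703 to 30.8, 40.5 and 34.3 CPM (-4.45 ± 0.22, adjusted p = 0.000304), Rps29 from 215 and 173 to 7.45, 6.70 and 5.71 CPM (-4.87 ± 0.26) and Rpl23a from 83.6 and 74.7 to 0.588, 0.791 and 0.551 CPM (-6.94 ± 0.32). Rpl3 was at 30.8 and 40.2 CPM in GV libraries and had no count in the 1-cell libraries, at least 612-fold lower by the same floor. The exception was Rps27l, a p53-induced paralogue of Rps27, which rose from 189 and 153 to 985, 828 and 803 CPM (2.35 ± 0.22). Summed over the list, the level was 9994 and 9091 CPM in GV, 2696, 2736 and 2501 CPM in 1-cell and 27530, 26228 and 21659 CPM in 2-cell libraries. The low point at the 1-cell stage was therefore followed by a level above that of GV oocytes in every 2-cell library. Ribosomal protein genes have many near-identical processed pseudogenes, and the sources used here do not say how reads matching several places were counted.

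Nuclear genes of oxidative phosphorylation came next, with 49 of 79 gene IDs (62.03%) lower by 4-fold or more and none higher. Among all genes, 21.6% were lower and 6.98% higher by as much. The list's median was 2.33 below that of all genes. Cox7c, of cytochrome c oxidase, fell from 162 and 120 to 4.18, 2.86 and 1.80 CPM (-5.58 ± 0.40, adjusted p = 0.000433) and Ndufb4, of complex I, from 160 and 139 to 7.32, 7.18 and 6.86 CPM (-4.39 ± 0.23). Uqcrq, of complex III, went from 213 and 179 to 12.9, 10.2 and 8.52 CPM (-4.22 ± 0.27). The summed level was 11738 and 10320 CPM in GV, 4779, 5443 and 4506 CPM in 1-cell and 10728, 10499 and 9585 CPM in 2-cell libraries.

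The 13 protein-coding genes of the mitochondrial genome went the opposite way. All 13 were higher in 1-cell libraries at an adjusted p under 0.05, against 19.9% of all genes. Of the 13, 11 rose by 4-fold or more, against 6.98% of all genes, and their median was 3.83 above that of all genes. mt-Atp6, a subunit of ATP synthase, rose from 549 and 599 to 11463, 8312 and 7184 CPM (3.97 ± 0.27, adjusted p = 0.000389), and mt-Cytb, of complex III, from 346 and 428 to 6790, 5855 and 5483 CPM (3.96 ± 0.22). mt-Nd2 rose from 93.5 and 69.2 to 1491, 1336 and 1405 CPM (4.12 ± 0.24), whereas mt-Co3 (1.66) and mt-Co2 (1.91) stayed under 4-fold. The mitochondrial genome took 0.308% ± 0.00373 (SD, n = 2) of all counts in GV and 2.44% ± 0.122 (SD, n = 3) in 1-cell libraries. With all 19 total-mRNA libraries of the series in the fit, mt-Atp6 and mt-Cytb kept their size (3.79 and 3.78) and did not pass the test (adjusted p = 0.12 and 0.079). Summed, the 13 genes were at 2247 and 2418 CPM in GV, 29083, 24126 and 23369 CPM in 1-cell and 103452, 91140 and 101360 CPM in 2-cell libraries. Mitochondrial tRNA genes, whose reads may come from longer precursors or neighbours, headed the increases by fold, with mt-Tl1 going from 2.76 and 1.58 to 98.8, 101 and 103 CPM (5.54 ± 0.37) and mt-Tm from 3.53 and 3.24 to 166, 156 and 140 CPM (5.51 ± 0.27).

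**Figure D4:**
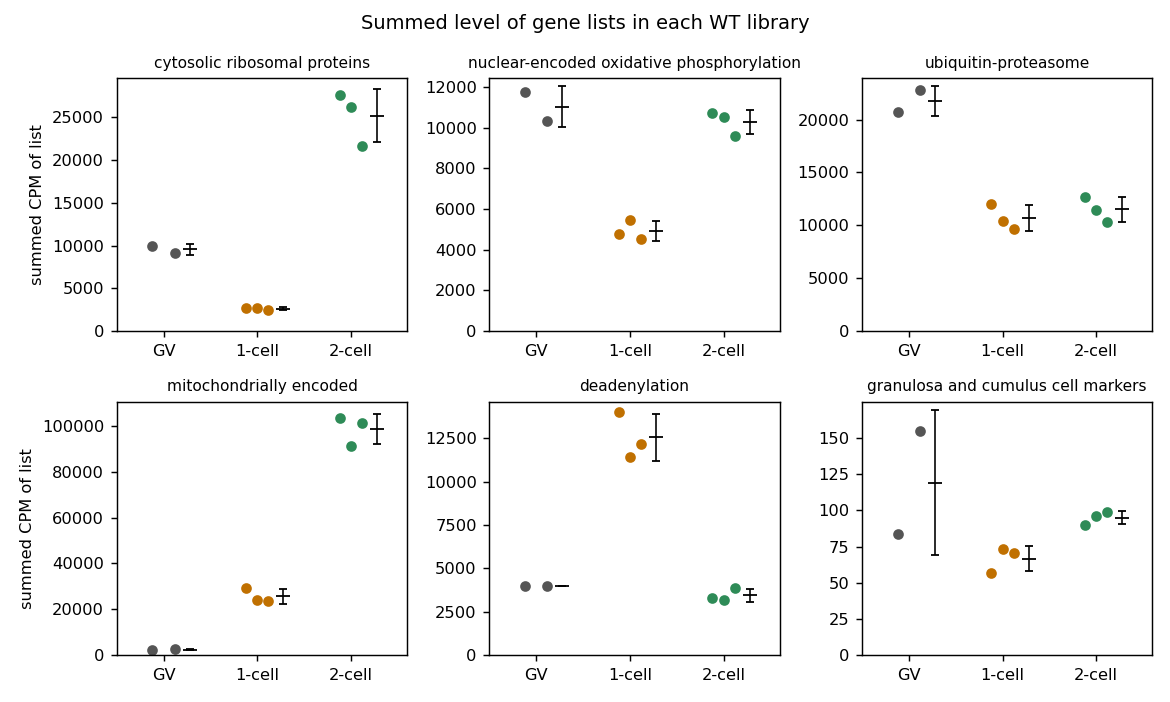
Summed level of 6 gene lists in each WT library of total mRNA (points), in CPM, at the GV, 1-cell and 2-cell stage, with bars for the mean and SD and a vertical axis of its own from 0 for each list. Ribosomal sums were lowest in the 1-cell libraries at 2501 to 2736 CPM, deadenylation sums highest there, and the mitochondrially encoded sums higher at each later stage.

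Proteasome and ubiquitin genes had 16 large decreases and 1 large increase among 37, or 43.2% and 2.70% against 21.6% and 6.98% of all genes. The catalytic subunit Psmb5 fell from 155 and 113 to 6.73, 5.72 and 3.36 CPM (-4.67 ± 0.37). Cul1, the scaffold of SCF ubiquitin ligases, rose from 288 and 466 to 1540, 1617 and 1581 CPM (2.07 ± 0.25) and was under 4-fold without GV library 1 (1.72). Among 34 genes of RNA polymerase II and the general factors, 5 fell and 2 rose by 4-fold or more, shares of 14.7% and 5.88% against the same backgrounds. The small subunits Polr2k (-4.07 ± 0.32) and Polr2l (-2.80 ± 0.21) fell, and the TFIIA subunits Gtf2a1, from 47.2 and 26.8 to 234, 191 and 280 CPM (2.67 ± 0.34), and Gtf2a2 (2.38 ± 0.25) rose.

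Outside these lists, the nuclear genes with the greatest gain in level among large changes included Mphosph6, an exosome cofactor, from 1802 and 1601 to 12632, 8613 and 8655 CPM (2.55 ± 0.25, adjusted p = 0.000588). Slbp, which binds the stem-loop of histone mRNAs, went from 1933 and 1780 to 11257, 7231 and 7912 CPM (2.25 ± 0.25) and Rbbp7, a histone chaperone, from 1669 and 2009 to 8420, 7453 and 6718 CPM (2.03 ± 0.20). H3f3b, for the replication-independent histone H3.3, rose by 2.08 ± 0.21. Slbp, Rbbp7 and H3f3b were under 4-fold with total-count scaling (1.81, 1.61 and 1.66), and Rbbp7 also without GV library 1 or 1-cell library 1 (1.87 and 1.98) and H3f3b without GV library 2 (1.94). With all 19 total-mRNA libraries of the series in the fit, these 4 genes did not pass the test (adjusted p = 0.26 to 0.34). By fold, among large changes reaching 20 CPM in the higher group, the nuclear genes with the greatest increases were Crls1, cardiolipin synthase, from 3.77 and 2.07 to 59.4, 90.8 and 74.9 CPM (4.68 ± 0.42), Tmed7, a cargo receptor (4.36 ± 0.53), Kdm5a, a histone H3 lysine demethylase, from 5.82 and 5.69 to 64.1, 118 and 136 CPM (4.20 ± 0.42), and Btg3, an antiproliferative relative of Btg4 (4.09 ± 0.59). Btg3 is also a member of the deadenylation list and its greatest increase by fold.

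The greatest falls by fold, under the same minimum of 20 CPM, took mRNAs to near the limit of detection. Upp1, uridine phosphorylase, went from 332 and 423 to 2.61, 1.89 and 1.15 CPM (-7.66 ± 0.39, adjusted p = 0.000304), Akr7a5, an aldo-keto reductase, from 73.6 and 86.1 to 0.915, 0 and 0.301 CPM (-7.65 ± 0.84) and Bmp8b, a growth factor, from 26.2 and 29.6 to 0.196, 0.304 and 0.0501 CPM (-7.27 ± 0.56). Rrp9, a U3 snoRNP protein, had 2 counts over the 1-cell libraries against 2542 over the GV libraries, a 618-fold lower level with a 95% exact counting interval of 171 to 5100, which covers counting error only. In level, large losses also included Elobl, an elongin B-like gene, from 3141 and 3304 to 730, 149 and 120 CPM (-3.28 ± 0.75, adjusted p = 0.011), and Rnaset2a and Rnaset2b (-4.30 ± 0.71 and -3.92 ± 0.56), near-identical copies of a ribonuclease gene whose reads can be split between them. For Elobl and both ribonuclease copies, 1-cell library 1 was the highest of its group.

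Shorter transcripts and those with fewer A and T bases at the 3′ end fell more often. Among genes with a transcript of up to 1 kb, 38.9% of 1081 fell by 4-fold or more and 4.72% rose, while over 4 kb 10.4% of 3924 fell and 9.07% rose. With up to 55% A and T in the last 100 bases, 39.7% of 3223 genes fell and 1.80% rose, and over 75% A and T, 7.62% of 1246 fell and 15.7% rose. Across 13355 genes Spearman's rho of the log2 fold change was 0.26 with transcript length and 0.39 with A and T content, where the points share the same 5 libraries and genes are not independent. The ribosomal and oxidative phosphorylation lists hold short transcripts, with median lengths of 857.5 and 863 bases. Within the class of up to 1 kb, 79.6% of 54 ribosomal genes and 66.7% of 45 oxidative phosphorylation genes fell, against 35.4% of the 982 genes in neither list. The part of library preparation in these relations was not tested.

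**Figure D5:**
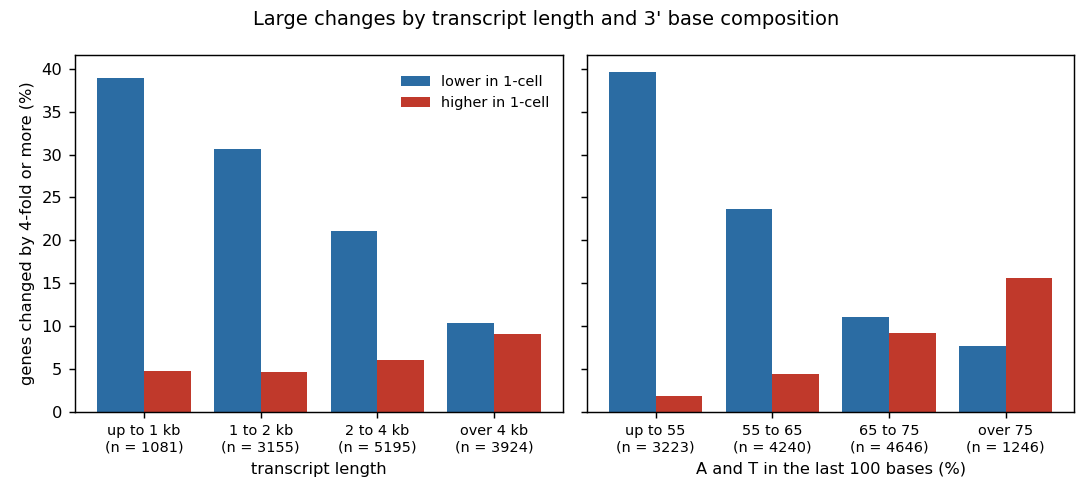
Percentage of protein-coding genes with a large decrease (blue) or a large increase (red) from GV to 1-cell, by transcript length (left) and by A and T content of the last 100 bases (right), with the number of genes in each class. Decreases go from 38.9% in the shortest class to 10.4% in the longest, and from 39.7% to 7.62% with A and T content.

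Het libraries, none of which entered the test, were counted in the same pair of tables. Of the 1322 genes with a large increase in WT, 62.1% were at least 4-fold higher in het 1-cell library 2 than in the mean of the het GV libraries and 0.832% were at least 4-fold lower, against 9.02% of all genes higher. Of the 4086 with a large decrease, 69.0% were at least 4-fold lower, against 22.3% of all genes. Het 1-cell libraries 1 and 3 stood apart in that their 100 most abundant genes took 6.34% and 5.53% of the counts. These libraries gave 44.7% and 43.2% of the increases and 65.3% and 60.9% of the decreases. Of all genes, 8.28% and 9.10% were at least 4-fold higher in them, and 21.5% and 20.2% at least 4-fold lower. In het 1-cell library 2, Zp3 was at 239 CPM against 4011 and 3768 CPM in het GV libraries, Cnot7 at 2720 against 249 and 217 CPM, Rpl5 at 44.7 against 706 and 836 CPM and mt-Atp6 at 17699 against 947 and 1573 CPM. In het 1-cell library 2 these 4 genes thus lay on the same side of the het GV libraries as WT 1-cell libraries did of WT GV libraries. In het 1-cell libraries 1 and 3, Zp3 (109 and 91.5 CPM) and Rpl5 (38.5 and 38.3 CPM) were low as well, and Cnot7 was at 378 and 281 CPM. mt-Atp6 went the other way there, at 128 and 91.9 CPM, and the mitochondrially encoded genes summed to 1546 and 1145 CPM against 4168 and 6440 CPM in het GV libraries.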

How the data were processed

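The authors deposited gene-level read counts in 2 tables, 1 for GV oocytes and 1 for embryos. Per the labels' protocols, cells were lysed and mRNA was reverse transcribed and amplified with a full-length single-cell kit, and libraries were made by transposition. The submitters' processing notes name featureCounts (1.6.5), HISAT2 (2.1.0), Trim Galore (0.6.4) and build mm10. No molecular identifiers and no strand setting are named in the sources used here, so overlapping and antisense genes cannot be told apart.

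The tables were joined on gene ID (56196 IDs in each), and 27 of 28 symbols that a spreadsheet had turned into dates were restored. Genes passing edgeR's filterByExpr (18943) were tested with edgeR 4.0.16 (R 4.3.3, TMM scaling, quasi-likelihood F test, Benjamini-Hochberg adjustment over all genes tested). CPM are TMM-scaled, and all libraries were brought to the scale of the 5 compared. Log2 fold changes computed from the deposited counts are 1-cell over GV with the SE derived from the F statistic. The script was tested on simulated data. Whether the libraries of a group are different animals is not stated in the labels, and p-values cover the spread between these libraries only, which may be technical.

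Named genes were the 10 highest and 10 lowest fold changes among large changes reaching 20 CPM, the 10 greatest gains and losses in CPM, up to 4 members in each direction with the smallest p from each of 20 lists, and 20 genes of oocyte biology given as values; members of lists outside these were chosen after their values were seen. The comparison and the lists were chosen with earlier results of these data known. Alternatives were another scaling, no filter, DESeq2 1.42.0, more libraries in the fit, each library left out, a replicate block and thinned counts.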

Additional observations from a re-analysis of the deposited data

How the results depend on the processing

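No gene with a large change had the opposite direction as a large change under any alternative. Large increases numbered 623 with total-count scaling and 629 with all 19 total-mRNA libraries in the fit. With 17 libraries, leaving out het 1-cell libraries 1 and 3, an alternative chosen after seeing the data, there were 478 large increases and 2681 large decreases. Measured relative to the median of all genes, also chosen after seeing the data, large increases numbered 2013. Leaving out 1 library at a time gave 963 to 1588 large increases and 2508 to 5089 large decreases; the lone GV library is then assumed to vary like the 1-cell libraries. Of 1322 increases and 4086 decreases, 820 and 2457 were kept without GV library 2. A fit with the replicate number as a block gave 1198 and 3714, though oocytes and embryos of the same number are different specimens. Same-numbered libraries' deviations from their group means correlated at -0.0902 and 0.0687 over 18943 genes. With 2 GV libraries, the GV deviations mirror each other, so these correlations are not independent and cannot decide whether the numbers pair the samples. RLE scaling, DESeq2, thinned counts and no filter kept both counts within 1.5 times. Bmp15, which did not pass the test, changed sign without GV library 2 (0.12) and without 1-cell library 3 (0.0095), with a range of -0.51 to 0.12 over the libraries left out. Over 137 named genes and 13 settings, the outcome was the same in 1635 cases, weaker in 140, stronger in 1 and reversed in 2. The 137 include genes that did not pass the test, such as Bmp15 and Eif4enif1, so 1635 is not a number of large changes kept. Of the weaker cases, 22 were under total-count scaling, 29 with 19 libraries and 30 with 17. Depth limits the low genes, since 1-cell libraries held fewer counts than GV libraries.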

Other observations

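Other gene families were grouped by symbol, and those named here were picked after their values were seen, so their counts of changes of 4-fold or more were not tested and stand beside the 21.6% lower and 6.98% higher among all genes. Mitochondrial ribosomal proteins, which are encoded in the nucleus and translate the mitochondrial mRNAs that rose, had 24 of 49 large-subunit genes (Mrpl) and 15 of 29 small-subunit genes (Mrps) lower and none higher, or 49.0% and 51.7% lower. Translation initiation factor genes (Eif) had 18 of 54 (33.3%) lower and none higher, and DEAD-box helicases (Ddx) 9 of 35 (25.7%) lower and none higher. Zinc finger genes (Zfp) had 42 of 309 (13.6%) higher and 36 (11.7%) lower, and centrosomal genes (Cep) 5 of 35 (14.3%) higher and 2 (5.71%) lower. Histone genes (Hist) had 10 of 56 (17.9%) lower and 1 higher.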
